A study of Mus musculus with 6 samples.

Results

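The genes described here are 9 receptors of the LDL receptor family and its sorting relatives, Lrp8, Vldlr, Lrp1, Lrp4, Lrp5, Lrp6, Lrp10, Lrp12 and Sorl1, out of 38087 genes in the deposited table. They were taken by gene symbol, each symbol matched 1 row, and all 9 were above 0 in at least 3 libraries and so were among the 18899 genes tested. The set was assembled with earlier results of the same comparison known, and Lrp8 was included because it fell, so the differences between groups given for these genes are descriptions and carry no test of their own. RNA was measured in 3 libraries of mouse macrophages exposed to 10 nM resolvin D1 (RvD1) for 6 h and in 3 libraries of untreated macrophages. RvD1 is a lipid mediator of the resolution of inflammation, derived from docosahexaenoic acid, and the series is about its receptor ALX/FPR2 in myeloid cells during limb ischemia. All 6 libraries came from bone marrow of male C57BL/6J mice, given as 8 to 10 weeks old in the protocol and as 2 to 4 months old among the sample characteristics. The marrow was cultured for 7 days with 10 ng/ml of M-CSF, the growth factor that drives macrophage differentiation, and re-plated for 24 h without it. The labels describe no vehicle for the untreated cultures. They also leave out whether each library had its own mouse or culture, so intervals and p-values cover only the variation among these samples, part of which may be technical. Depth, estimated from the step between low values, was 11.2 to 16.3 M reads in RvD1 and 9.06 to 14.3 M reads in untreated libraries.

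Many receptors of this family bind ligands outside the cell through cysteine-rich ligand-binding repeats and carry them inward through clathrin-coated pits. Lrp8 (also called apolipoprotein E receptor type II) and Vldlr are the closest relatives among them: both bind reelin and apolipoprotein E, and in neurons both pass the reelin signal to the adaptor Dab1. Lrp1 is a large scavenging and signalling receptor that macrophages use to take up lipoproteins, protease-inhibitor complexes and apoptotic cell material. Lrp5 and Lrp6 are co-receptors for Wnt ligands, Lrp4 is the agrin receptor of the neuromuscular junction, and Sorl1 sorts cargo between the Golgi and endosomes. Lrp10 and Lrp12 are smaller and less studied members.

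Lrp8 fell with RvD1, whereas its nearest relative Vldlr lay higher, with groups that were barely apart. Lrp1, the most abundant receptor of the set, was at the same mean level in both groups. On the authors' log2 scale of normalized reads, Lrp8 stood at 8.13, 8.41 and 8.19 in RvD1 replicates 1, 2 and 3, against 8.90, 9.02 and 8.81 in untreated replicates 1, 2 and 3. Every RvD1 library lay below every untreated library, with a gap of 0.39 between the closest pair. Its level with RvD1 was 0.631 of the untreated level (95% interval 0.543 to 0.732, n = 3 per group), a log2 fold change of -0.66 (SE 0.09). Of the 18899 tested genes, 597 had a lower log2 fold change than Lrp8, or 3.16%.

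Among the 9 receptors, 1 was past the threshold of limma with Benjamini-Hochberg adjustment over all tested genes, in the lower direction, and 8 were not. That receptor was Lrp8. The same fit called 105 genes lower, or 0.556% of those tested, and 106 higher, or 0.561%. Since Lrp8 was chosen on this comparison, nothing is read from its count. Without any 1 library the log2 fold change of Lrp8 lay between -0.75 and -0.61. The call itself ended in 5 of those 6 fits, all except the one without RvD1 replicate 1. In those 5 fits at most 5 genes of the whole table passed, against 211 with all libraries.

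Sequence before 3 annotated transcript starts is shown for Lrp8 as the receptor that fell, Vldlr as its closest relative and Lrp1 as the most abundant receptor. Each window holds the 250 bases before a start, 5′ to 3′ on the gene's strand, from RefSeq on GRCm38.p6, and capitals mark matches to the motifs named below. The Lrp8 window (chr4:107802635-107802884, plus strand) precedes the most upstream of 3 Lrp8 starts in that table. That start lies 624 bases inside the gene as GENCODE annotates it, and 43 bases of the window are in an annotated exon. The Vldlr window (chr19:27216234-27216483, plus strand) and the Lrp1 window (chr10:127621149-127621398, minus strand) end at the GENCODE start of each gene.
Lrp8: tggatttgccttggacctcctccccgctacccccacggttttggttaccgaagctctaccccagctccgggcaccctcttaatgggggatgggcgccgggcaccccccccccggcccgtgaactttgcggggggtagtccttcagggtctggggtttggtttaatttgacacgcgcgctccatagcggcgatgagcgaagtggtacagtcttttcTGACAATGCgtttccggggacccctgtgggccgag
Vldlr: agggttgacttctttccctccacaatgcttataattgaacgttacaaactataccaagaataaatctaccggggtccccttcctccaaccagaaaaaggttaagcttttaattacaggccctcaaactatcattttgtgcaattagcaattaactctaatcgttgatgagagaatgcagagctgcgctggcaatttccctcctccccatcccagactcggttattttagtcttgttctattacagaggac
Lrp1: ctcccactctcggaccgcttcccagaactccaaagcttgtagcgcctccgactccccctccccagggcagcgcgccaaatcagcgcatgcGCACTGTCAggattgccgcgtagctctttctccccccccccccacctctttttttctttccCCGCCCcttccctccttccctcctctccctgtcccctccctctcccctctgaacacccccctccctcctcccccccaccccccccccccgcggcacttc
Both strands were searched for the GC box (GGGCGG), the CCAAT box (CCAAT) and the core of the antioxidant response element (TGACNNNGC). The 250-base windows of 32851 starts held these in 32.7%, 33.9% and 10.2% of cases. The Lrp8 window held 1 antioxidant element core, the Lrp1 window held 1 antioxidant element core and 1 GC box, and the Vldlr window held 0 matches to the 3 motifs. The window before the other Vldlr start in that table (chr19:27216770-27217019) held 1 GC box and 1 CCAAT box, and those before the other 2 Lrp8 starts held 0 matches. A match describes letters in these windows and is not evidence of binding. Of the other receptors, Lrp10 and Sorl1 also have windows in that table, and Lrp4, Lrp5, Lrp6 and Lrp12 have none there.

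The 9 genes lie on 8 chromosomes of the mm10 assembly, with Vldlr and Lrp5 both on chromosome 19, and all are annotated as protein-coding. Lrp8 (ENSMUSG00000028613) spans chromosome 4, 107802261 to 107876840 on the plus strand, and its longest annotated transcript has 16 exons and 6627 bases. Lrp1 has the longest transcript of the set, 14888 bases in 89 exons, and Lrp10 the shortest, 4228 bases in 7 exons. Library preparation is not stated to preserve strand. The exons of Lrp10 share 475 bases (10.6% of its exon sequence) with an antisense gene, Gm10366, and those of Sorl1 share 185 bases (1.63%) with another, Gm16214, so reads there cannot be assigned to 1 strand.

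**Figure D1:**
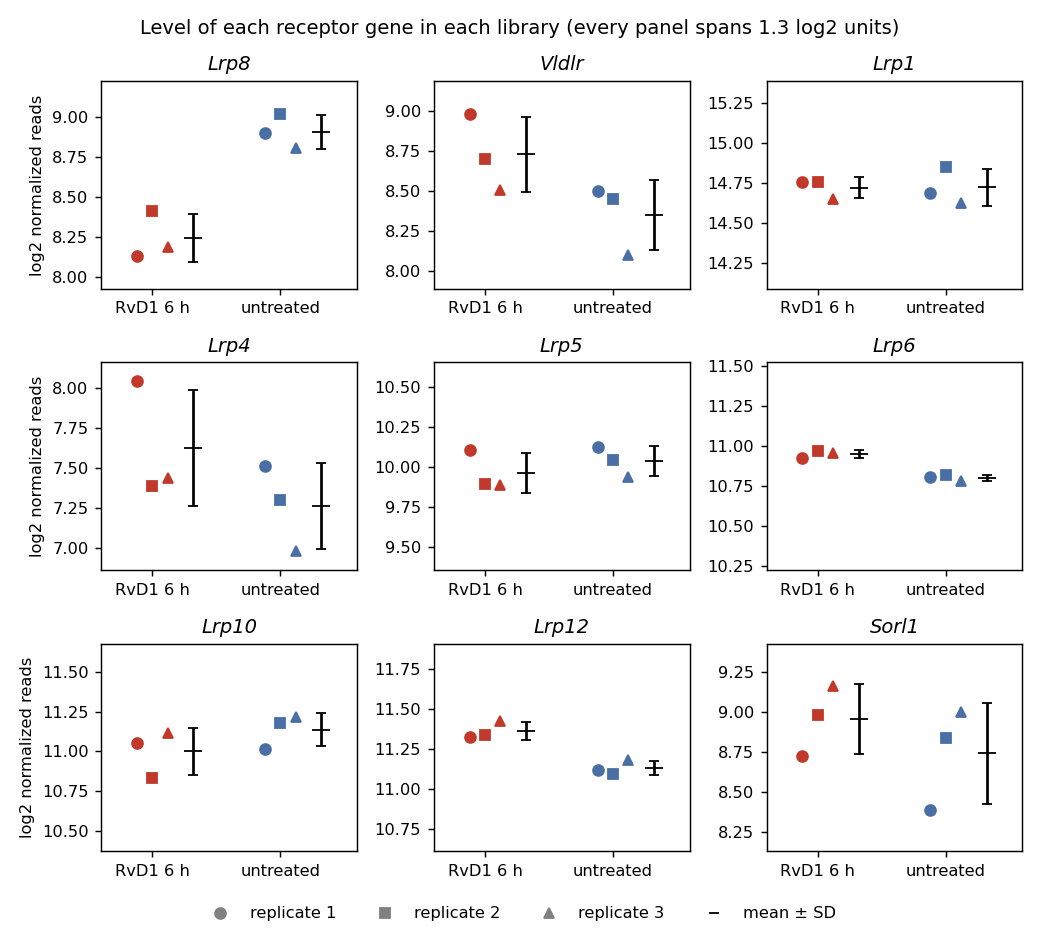
Level of each of the 9 receptor genes in each library, as log2 normalized reads on the vertical axis, with RvD1 libraries in red and untreated libraries in blue, and the mean ± SD of each group beside them (n = 3). Every panel spans the same 1.3 log2 units; the groups are apart for Lrp8, Vldlr, Lrp6 and Lrp12 and overlap for the other 5.

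Vldlr, which binds triglyceride-rich lipoproteins as well as reelin, stood at 8.98, 8.70 and 8.51 in RvD1 replicates 1, 2 and 3, against 8.50, 8.45 and 8.10 in untreated replicates 1, 2 and 3. The groups did not overlap, but the lowest RvD1 library and the highest untreated library were only 0.0075 apart. Its log2 fold change was 0.38 (95% interval 0.06 to 0.70), a direction opposite to that of Lrp8, and became 0.25 without RvD1 replicate 1 or without untreated replicate 3. With length and GC effects removed it was 0.19, with an interval of -0.12 to 0.50. Per kilobase of the longest transcript, the level of Lrp8 was 0.871 ± 0.178 of that of Vldlr in RvD1 libraries and 1.78 ± 0.19 times it in untreated libraries (SD, n = 3 each). Lrp8 was thus below Vldlr in every RvD1 library, at a ratio of 0.667 to 0.986, and above it in every untreated library, at 1.58 to 1.96. Since the ratio is built from the value on which Lrp8 was chosen, it is a description.

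Lrp12 and Lrp6 were also higher in every RvD1 library than in any untreated one, by smaller amounts. Lrp12 stood at 11.32, 11.34 and 11.43 in RvD1 replicates 1, 2 and 3, against 11.12, 11.09 and 11.18 in untreated replicates 1, 2 and 3. Its log2 fold change was 0.23 (95% interval 0.11 to 0.36). Lrp6, the Wnt co-receptor required in most tissues, stood at 10.92, 10.97 and 10.96 in RvD1 replicates 1, 2 and 3, against 10.81, 10.82 and 10.78 in untreated replicates 1, 2 and 3. It was the most even of the 9 between replicates, and its log2 fold change was 0.15 (95% interval 0.04 to 0.26), a direction that turned with length and GC effects removed (-0.03). In all, the groups did not overlap for 4 of the 9 receptors, 3 higher and 1 lower with RvD1. Over all tested genes the groups did not overlap in 25.4%, 12.6% higher and 12.8% lower.

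The other Wnt co-receptor, Lrp5, overlapped between groups, at 9.96 ± 0.13 in RvD1 and 10.03 ± 0.09 in untreated libraries (log2, SD, n = 3), a difference of -0.07 with an interval of -0.25 to 0.11. The difference was -0.14 without RvD1 replicate 1 and -0.03 without untreated replicate 1. Whether Lrp5 and Lrp6 differed in their response was not tested. Lrp1 stood at 14.76, 14.76 and 14.65 in RvD1 replicates 1, 2 and 3, against 14.69, 14.85 and 14.63 in untreated replicates 1, 2 and 3. The groups overlapped fully, and the interval of its log2 fold change ran from -0.18 to 0.18. Lrp10 stood at 11.06, 10.84 and 11.12 in RvD1 replicates 1, 2 and 3, against 11.02, 11.18 and 11.21 in untreated replicates 1, 2 and 3. Its groups overlapped too, with a log2 fold change of -0.13 (-0.33 to 0.06), which became -0.05 without RvD1 replicate 2 and -0.01 with length and GC effects removed.

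Lrp4 and Sorl1 varied most between replicates. Lrp4 stood at 8.05, 7.39 and 7.44 in RvD1 replicates 1, 2 and 3, against 7.51, 7.30 and 6.98 in untreated replicates 1, 2 and 3. RvD1 replicate 1 was the highest and the other libraries of the 2 groups were interleaved. The log2 fold change of 0.36 (-0.08 to 0.81) became 0.15 without RvD1 replicate 1 and 0.22 without untreated replicate 3. Sorl1 stood at 8.73, 8.98 and 9.17 in RvD1 replicates 1, 2 and 3, against 8.39, 8.84 and 9.0002 in untreated replicates 1, 2 and 3. The groups overlapped, and the log2 fold change of 0.22 (-0.15 to 0.58) became 0.04 without untreated replicate 1 and 0.11 without RvD1 replicate 3.

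The cultures held transcripts of cells other than macrophages, which bears on receptors that those cells also use. All 8 macrophage markers found in the table were above 0 in every library, with summed normalized reads of 97729.5 to 125073.3 in RvD1 and 94377.1 to 122386.7 in untreated libraries, and 0 of 8 passed the test. Of 10 stromal and fibroblast markers, 9 were above 0 in every library, and their sum ranged from 40192.3 to 62700.7 in RvD1 and from 43296.2 to 51466.0 in untreated libraries, with 0 of 10 past the test. RvD1 replicate 1 had the highest stromal sum of the 6 libraries, 62700.7, and was also the highest of the 6 for Lrp4 and Vldlr. The sum of 6 endothelial markers was also highest in RvD1 replicate 1, at 1426.6, and ranged from 753.7 to 1426.6 in RvD1 and from 719.5 to 835.1 in untreated libraries, with 0 of 6 past the test. Neutrophil marker sums were 5431.4, 7633.9 and 14295.4 in RvD1 replicates 1, 2 and 3, and 4190.7, 6634.4 and 14689.5 in untreated replicates 1, 2 and 3. The macrophage sums and Sorl1 also rose from replicate 1 to replicate 3 in both groups. The sum of 6 lymphocyte markers ranged from 0 to 7.6 in RvD1 and from 0 to 4.3 in untreated libraries. Of the 6, 2 (Cd3e and Ms4a1) were listed at 0 throughout. The part of these cells in the receptor values was not tested, and in bulk samples fewer cells of a type and less RNA per cell cannot be told apart.

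**Figure D2:**
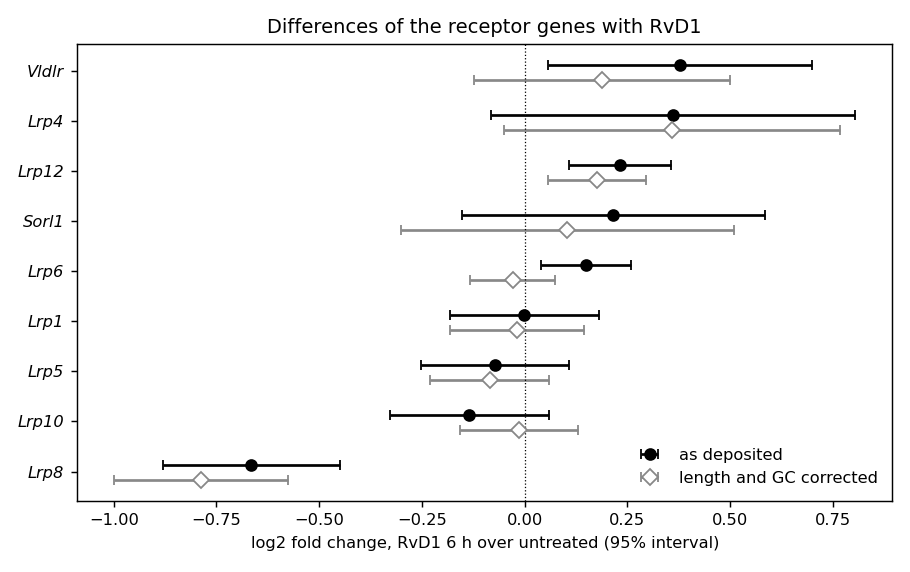
Log2 fold change of RvD1 over untreated for the 9 receptor genes with 95% intervals (n = 3 per group), as deposited (filled circles) and with length and GC effects of transcripts removed (open diamonds). Lrp8 is the lowest at -0.66 as deposited and -0.79 corrected; Vldlr, highest as deposited at 0.38, is 0.19 after correction.

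Transcript length and base composition varied with the fold change across genes: over 13024 annotated genes averaging 5 or more on the log2 scale, Spearman's rho was 0.352 for length and -0.571 for GC content. Genes are not independent replicates, so this is a description. Most of the receptors are long: the transcript of Lrp8 is longer than that of 90.2% of these genes, and those of Lrp1, Sorl1 and Lrp6 longer than 99.6%, 98.3% and 97.2%. Lrp10 and Lrp12 are less so, at 69.1% and 69.5%. The GC content of the receptors is spread widely, from above 19.1% of these genes (Vldlr) to above 94.0% (Lrp10), with Lrp6 at 30.2% and Lrp8 at 37.9%. A correction fitted to length and GC content in each library moved Lrp8 to -0.79 (95% interval -0.999 to -0.58), away from 0. The same correction moved Vldlr to 0.19 (-0.12 to 0.50), Lrp6 to -0.03 (-0.13 to 0.07) and Sorl1 to 0.10 (-0.30 to 0.51). The value of Lrp6 thus changed sign. Lrp12 moved to 0.18 (0.06 to 0.29) and Lrp4 stayed at 0.36. The median over the 9 receptors was 0.15 as deposited and -0.01 corrected, beside 0.00 and -0.01 for all tested genes.

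Levels of different receptors were compared as normalized reads per kilobase of the longest annotated transcript. Lrp1 led with 1818 ± 80 in RvD1 and 1822 ± 148 in untreated libraries, or 53.1% and 54.1% of the summed level of the 9 receptors. Lrp12 had 621 ± 24 and 529 ± 17 in RvD1 and untreated libraries, and Lrp10 had 487 ± 48 and 533 ± 38. Lrp12 and Lrp10 overlapped in the untreated libraries and not in the RvD1 libraries, where Lrp12 was above. Lrp6 (211 ± 4 in RvD1 and 191 ± 3 in untreated libraries) and Lrp5 (112 ± 10 and 118 ± 8) followed, each apart from its neighbours in both groups.

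The lowest levels per kilobase belonged to Lrp8, Vldlr, Sorl1 and Lrp4. Lrp8 had 45.9 ± 4.9 in RvD1 and 72.6 ± 5.4 in untreated libraries, and its place in the order was 8 with RvD1 and 6 untreated. Vldlr had 53.8 ± 8.9 and 41.3 ± 6.0, Sorl1 46.8 ± 7.1 and 40.6 ± 8.4, and Lrp4 25.5 ± 6.8 and 19.6 ± 3.6, in RvD1 and untreated libraries. In RvD1 libraries the ranges of Lrp8, Vldlr and Sorl1 overlapped across libraries, although Lrp8 was below Vldlr within each library. In untreated libraries Lrp8 lay above both by this length. With all annotated exons summed in place of the longest transcript, 7 of the 9 receptors kept their place in the mean order. The 2 that did not were Lrp8 and Sorl1, since the summed exons of Lrp8 are 10514 bases long against 6627 for its longest transcript. By summed exons Lrp8 had 28.9 ± 3.1 in RvD1 libraries, beside 42.6 ± 7.1 for Vldlr and 44.3 ± 6.7 for Sorl1. The untreated values were 45.8 ± 3.4, 32.7 ± 4.8 and 38.5 ± 8.0. How far Lrp8 stood from Sorl1 and Vldlr thus depends on the length used.

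**Figure D3:**
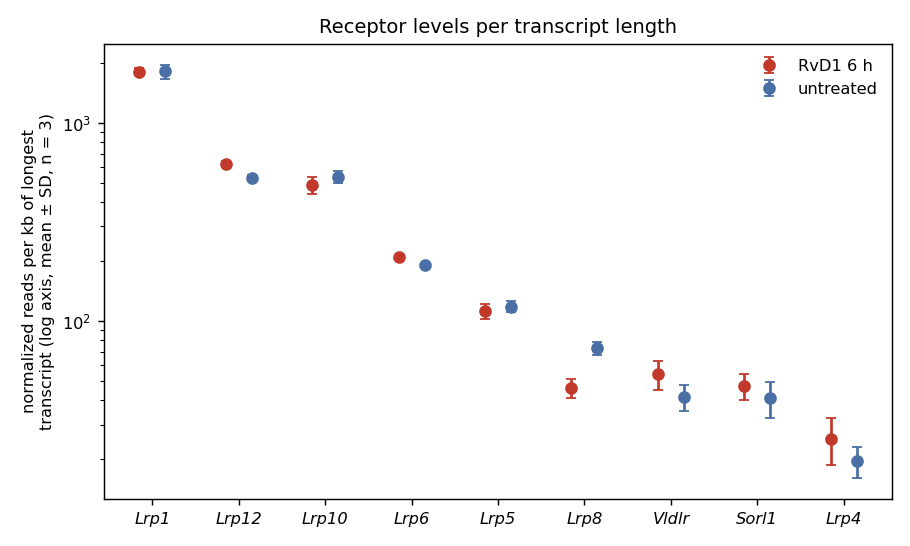
Level of each receptor per kilobase of its longest transcript, as normalized reads on a log axis, with the mean ± SD of the RvD1 (red) and untreated (blue) libraries (n = 3 each), ordered by the mean over all 6 libraries. Lrp1 is at about 1820 in both groups and the lowest receptor, Lrp4, at 25.5 with RvD1 and 19.6 untreated.

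The genes most like Lrp8 over the 6 libraries were found by the root-mean-square difference between log2 values centred on each gene's own mean, over 13175 genes with a mean of at least 5. Of the 5 nearest genes, 4 are given here: AC132082.1 (0.08), Trim16 (0.08), the thioredoxin reductase Txnrd1 (0.09) and Rpl31-ps7 (0.10), a ribosomal protein pseudogene whose reads may come from its parent gene. The median over all genes compared was 0.37. Txnrd1 stood at 13.14, 13.35 and 13.02 in RvD1 replicates 1, 2 and 3, against 13.68, 13.82 and 13.78 in untreated replicates 1, 2 and 3. All 4 were lower in every RvD1 library than in any untreated one, with log2 fold changes between -0.64 and -0.59, which the likeness to Lrp8 fixes in advance. No other receptor of the set was near: the closest, Lrp10, was at 0.33 and had place 3915 among these genes, and Vldlr was at 0.56 and had place 12635.

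**Figure D4:**
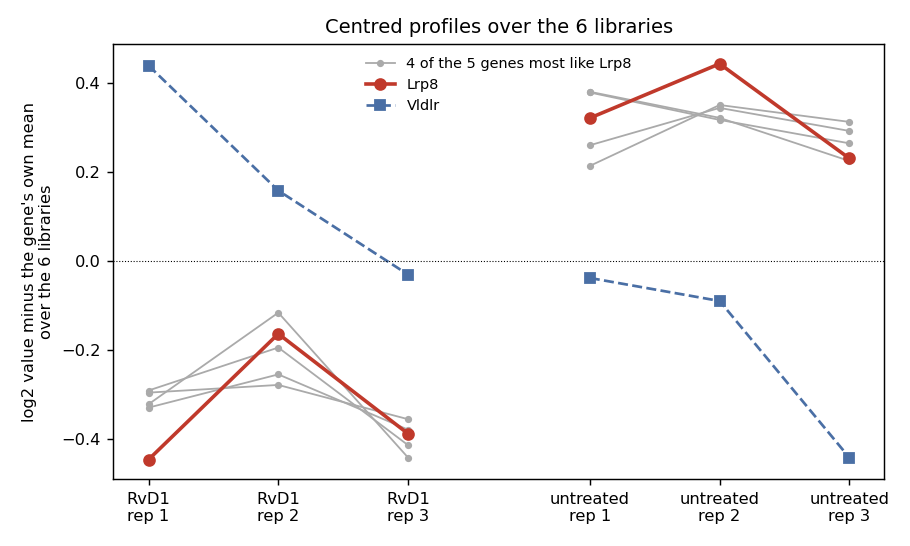
Log2 value of each library minus the gene's own mean over the 6 libraries (vertical axis), for Lrp8, Vldlr and 4 of the 5 genes most like Lrp8 (grey), with RvD1 libraries on the left and untreated libraries on the right. Lines join the values of 1 gene within a group and carry no order; Lrp8 and the grey genes are below 0 in all 3 RvD1 libraries and above 0 in all 3 untreated ones.

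Relatives, ligands and partners of the receptors were followed in 7 lists. Of their 116 distinct tested genes, 1 (0.862%) was lower and 0 were higher in limma with Benjamini-Hochberg adjustment over all tested genes, beside 1.12% of all tested genes called in either direction. Before adjustment, p was under 0.05 for 14 in the higher and 10 in the lower direction, or 20.7% of them. Over all tested genes the share was 19.9%, 10.3% higher and 9.65% lower, and the counts before adjustment given for each list below stand against that background. Their median log2 fold change was 0.02, beside 0.00 for all tested genes.

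Among 7 tested relatives outside the set, 0 passed (before adjustment, 0 had p under 0.05 in the higher and 0 in the lower direction). The smallest p belonged to Ldlrad3, a small receptor with ligand-binding repeats of the same kind. It stood at 7.85, 8.17 and 7.95 in RvD1 replicates 1, 2 and 3, against 7.71, 8.02 and 7.62 in untreated replicates 1, 2 and 3. The groups overlapped, with a log2 fold change of 0.20 (95% interval -0.08 to 0.49) and a limma adjusted p of 0.412. With length and GC effects removed it was 0.13. The list's median log2 fold change was 0.09. Lrp1b, Ldlrad1 and Sorcs3 were listed at 0 in all 6 libraries.

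The ligand list had 18 tested genes, of which 0 passed (before adjustment, 1 had p under 0.05 in the higher and 0 in the lower direction). The smallest p belonged to Thbs1, thrombospondin, a matrix protein that Lrp1 takes up. It stood at 16.33 ± 0.02 in RvD1 and 16.05 ± 0.07 in untreated libraries (log2, SD, n = 3), a log2 fold change of 0.28 with limma adjusted p = 0.117. With length and GC effects removed the log2 fold change of Thbs1 was 0.21 (limma adjusted p = 0.326). Reln, the ligand that gives reelin signalling its name, was at 0.06 in RvD1 replicate 3 and listed at 0 in the other 5 libraries. Apoe, chosen here after its values were seen as a ligand shared by several of the receptors, was 16.04 ± 0.19 in RvD1 and 16.25 ± 0.15 in untreated libraries (log2 fold change -0.22, 95% interval -0.50 to 0.06; -0.03 with length and GC effects removed).

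The list of genes that fold, sort and degrade the receptors had 16 tested genes, of which 0 passed (before adjustment, 2 had p under 0.05 in the higher and 1 in the lower direction). The 1 in the lower direction was Mesdc1 (log2 fold change -0.30), which was in the list but is not an established chaperone of these receptors. Picalm, a clathrin assembly protein, had the smallest p and stood at 13.61 ± 0.15 in RvD1 and 13.24 ± 0.06 in untreated libraries (limma adjusted p = 0.0688 for a log2 fold change of 0.37 ± 0.08, SE). With length and GC effects removed its log2 fold change was 0.16 (limma adjusted p = 0.479). The adaptor Dab1 was listed at 0 in all 6 libraries, while its relative Dab2, which links Lrp1 and other receptors to clathrin, was 12.73 ± 0.06 in RvD1 and 12.66 ± 0.08 in untreated libraries (log2 fold change 0.07). Mylip, the ubiquitin ligase that sends Vldlr and Lrp8 proteins to the lysosome, was 10.31 ± 0.20 in RvD1 and 10.42 ± 0.22 in untreated libraries (log2 fold change -0.10, -0.40 to 0.19). The chaperone Lrpap1 was 10.91 ± 0.09 in RvD1 and 10.94 ± 0.15 in untreated libraries (-0.03, -0.22 to 0.16). With length and GC effects removed, Dab2 was at -0.04 and Lrpap1 at 0.02, each with the opposite sign to its value as deposited. Mesdc1, Dab2, Mylip and Lrpap1 were chosen after their values were seen.

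Of 13 tested genes of receptor shedding and intramembrane cleavage, 0 passed (before adjustment, 2 had p under 0.05 in the higher and 2 in the lower direction). Timp3, an inhibitor of shedding proteases, had the smallest p, at 14.09 ± 0.13 in RvD1 and 13.62 ± 0.23 in untreated libraries (limma adjusted p = 0.0879 for a log2 fold change of 0.46 ± 0.12, SE). With length and GC effects removed the log2 fold change of Timp3 was 0.36 (limma adjusted p = 0.278). Of 20 genes of reelin signalling inside the cell, 0 passed (before adjustment, 3 had p under 0.05 in the higher and 3 in the lower direction). The kinase Cdk5 had the smallest p, at 8.28 ± 0.14 in RvD1 and 8.63 ± 0.04 in untreated libraries (limma adjusted p = 0.0803 for a log2 fold change of -0.35 ± 0.08, SE). Its value with length and GC effects removed was -0.27 (limma adjusted p = 0.235). Of 12 retromer and GGA partners of Sorl1, 0 passed (before adjustment, 1 had p under 0.05 in the higher and 0 in the lower direction). Vps35, the core retromer subunit, was 12.25 ± 0.12 in RvD1 and 12.03 ± 0.02 in untreated libraries (limma adjusted p = 0.126 for a log2 fold change of 0.22 ± 0.07, SE), and the value with length and GC effects removed was -0.02 (SE 0.05).

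The list of Wnt receptors and partners of Lrp5 and Lrp6 held the 1 gene past the test, with 31 tested, 0 higher and 1 lower (before adjustment, 5 had p under 0.05 in the higher and 4 in the lower direction, against the same 19.9% of all tested genes). Tcf7l2, a transcription factor that carries Wnt signals to target genes with beta-catenin, stood at 7.80, 7.70 and 7.75 in RvD1 replicates 1, 2 and 3, against 8.35, 8.32 and 8.10 in untreated replicates 1, 2 and 3. The groups did not overlap, and it fell to 0.703 of the untreated level (95% interval 0.609 to 0.811; limma adjusted p = 0.0442). Its log2 fold change was -0.51 (SE 0.09) as deposited. With length and GC effects removed it was -0.58 and the call was lost (limma adjusted p = 0.0629). The call also ended without RvD1 replicate 2 or 3 and without any 1 of the untreated libraries. The Wnt antagonists Dkk1 and Sost were listed at 0 in all 6 libraries, but other Dkk genes of the list were present. Dkk3 was 10.23 ± 0.28 in RvD1 and 10.23 ± 0.16 in untreated libraries. Dkk2 was 4.03 ± 0.30 and 3.37 ± 0.34, with overlapping groups and a log2 fold change of 0.66 (95% interval 0.02 to 1.31, limma adjusted p = 0.241). Dkk2 and Dkk3 were chosen after their values were seen.

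**Figure D5:**
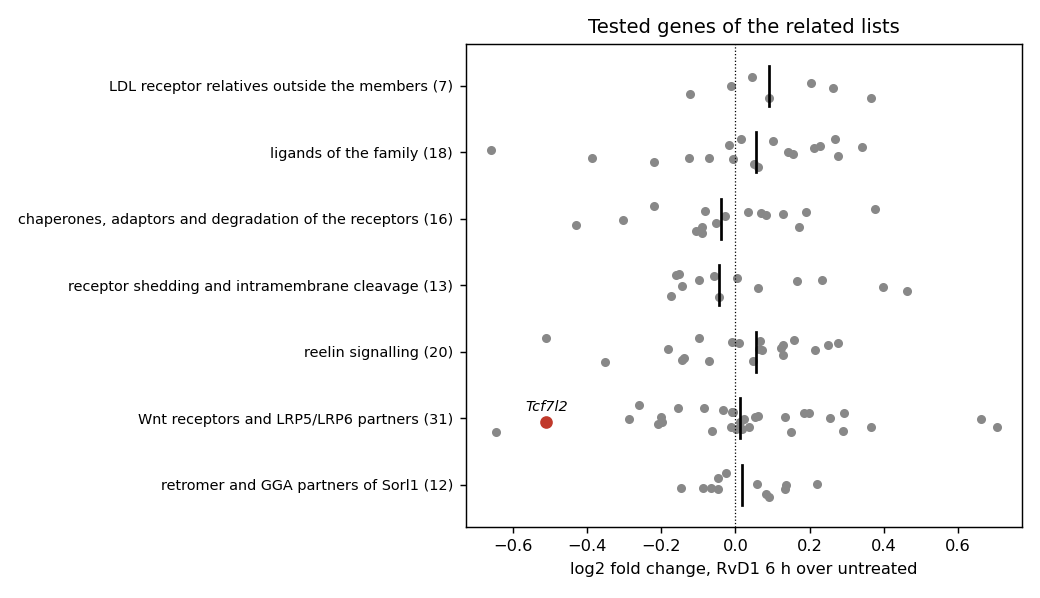
Log2 fold change of RvD1 over untreated (horizontal axis) for every tested gene of the 7 related lists, with the number tested in brackets and the median of each list as a black bar. Points are spread vertically at random within a list; Tcf7l2 in red is the 1 gene of the lists that passed limma over all tested genes, at -0.51.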

How the data were processed

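Poly-A RNA of 6 libraries was sequenced on a HiSeq instrument after TruSeq preparation, per the labels' protocols. The submitters' processing notes name TopHat2 2.0.7 and mm10. How reads were counted and normalized is not given in the sources used here. One table with a row for each of 38087 genes was deposited by the authors, and per the file headers its columns hold normalized values. They use decimal commas and were read as log2: none lay below 0, the highest was 17.4, and antilogs summed to 12.4 to 12.8 M per library. The lower limit of 0 understates changes of genes near it. From the step between low values, depth was estimated at 11.2 to 16.3 M reads in RvD1 and 9.06 to 14.3 M in untreated libraries; the table holds no counts, so no count test was run. The 9 receptors were worth an estimated 89.6 (Lrp4) to 36302 (Lrp1) reads per library.

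Groups and replicate numbers came from the sample titles. limma 3.58.1 in R 4.3.3 was fitted with a variance trend to the values as deposited, keeping the 18899 genes above 0 in 3 libraries or more, with treatment alone, two-sided tests and Benjamini-Hochberg adjustment over all of them (threshold 0.05). Standard errors and 95% intervals come from that fit (4 residual and 4.62 prior degrees of freedom). The receptors and gene lists were chosen with earlier results of these data known. Named genes were every receptor, genes past the test in each list (otherwise the smallest p), and the 5 nearest to Lrp8. A few genes are not reported here and were left out, 1 of those 5 among them. Apoe, Mesdc1, Dab2, Mylip, Lrpap1, Dkk2, Dkk3, Rpl31 and the genes named for standing at or near 0 fall outside that rule. They were chosen after their values were seen. Lengths, GC content and coordinates came from GENCODE M21, in which 95.3% of identifiers were found. The correction subtracted splines with 5 degrees of freedom in log2 length and in GC content from each library's deviations. The labels do not say that a replicate number marks a shared mouse or day, and it was not used to pair samples. Alternatives were other filters, quantile normalization, a pseudocount of 8, 1 variance prior, a replicate block, the correction, and leaving out each library. Sequences came from RefSeq; 5 of 9 receptors matched. Python 3.11.15, pandas 2.3.3, numpy 2.4.6 and matplotlib 3.10.9 were used.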

Additional observations from a re-analysis of the deposited data

How the results depend on the processing

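The log2 fold change of Lrp8 lay between -0.79 and -0.61 under the 14 alternatives. Lrp8 was chosen because it fell in these same libraries, and its groups do not overlap. Leaving out a library therefore could not turn its sign, and the range is a description. Its limma adjusted p ranged from 0.00245 to 0.178 and was under the threshold in 7 of the 14. The number of receptors past the test, 1 with all libraries (Lrp8), was 0 with no filter on low values or with 1 variance prior for all genes, 3 with a replicate block (Lrp8, Vldlr and Lrp12), 2 when the block was joined to a correction for length and GC (Lrp8 and Lrp12), and 0 to 1 without 1 library. Over all genes the 211 calls became 2 with no filter, 464 when a mean of 5 or more was required, 1 with 1 variance prior (3113 genes at an unadjusted p under 0.05), 1896 with the replicate block, 29 with the length and GC correction, 771 with both, and 0 to 451 without 1 library (at 0 calls in limma, 2623, 3203 and 3045 genes had an unadjusted p under 0.05 without RvD1 replicate 2, RvD1 replicate 3 and untreated replicate 3). The cause of these changes was not tested. Deviations of same-numbered libraries from their group means correlated at 0.301, -0.0801 and 0.417 for numbers 1, 2 and 3 over 13176 genes. RvD1 replicate 1 with untreated replicate 3 gave -0.383, and RvD1 replicate 3 with untreated replicate 1 gave -0.393. Number 2 gave between -0.0801 and 0.0879 with every library of the other group. The deviations of 3 libraries sum to 0, so these values are not independent and the low value of number 2 decides nothing. Pairing is at most a hint from the data and was not tested. In the Wnt list the 1 call (Tcf7l2) became 0 with no filter, a pseudocount of 8, 1 variance prior or the correction, 2 with the stricter filter, 5 with the block, 2 with the block and correction, and 0 to 1 without 1 library. Among lists with 0 calls, the block gave 4 ligands, 2 genes of the folding, sorting and degradation list and 2 of shedding. It also gave 2 of reelin signalling and 1 of the retromer list. With the correction added these counts were 3, 2, 1, 2 and 0. The 2 calls of the folding, sorting and degradation list were Mesdc1 and Picalm in both fits. Picalm was the 1 call of its list with the stricter filter, under quantile normalization and without RvD1 replicate 1 (0 to 1 over the libraries left out). Among single receptors, Lrp6 changed sign with the correction (-0.03), and Lrp1, near 0, lay between -0.05 and 0.06. With all libraries as the basis, the order of levels kept at least 7 of 9 places under every alternative. Depth limits Lrp4 most, at an estimated 89.6 reads in its lowest library.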
